A study of Mus musculus with 88 samples.

Results

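The genes described are 7 known p53 targets that act in cell death, Pmaip1, Bbc3, Fas, Tnfrsf10b, Pidd1, Perp and Aen, out of 18069 genes with a probe of their own on the arrays. They were chosen by name and known function, with 1 probe each, the one with the highest mean log2 intensity over all arrays, and all 7 were among the 13465 genes that passed the filter on mean log2 intensity, Perp through its high level in 1 tumour, NR-S1. The values come from 88 arrays of 1 colour each, with RNA of 4 mouse tumours that were grown by transplantation in a hind leg of C3H/HeNrs mice. The irradiated tumours had received a single dose of 30 Gy of carbon ions, 30 Gy of gamma rays or 50 Gy of gamma rays and were taken at 6 h, day 1 or day 3, and each beam had its own untreated tumours, 16 arrays in all. Per the labels, NR-S1 and SCCVII are squamous cell carcinomas that arose spontaneously, NFSa is a spontaneous fibrosarcoma and #8520 is a fibrosarcoma that arose after irradiation. Every tumour was grown in the same mouse strain, each is 1 transplanted line, and a hind leg tumour also holds host cells. The 44 groups held 2 arrays each.

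p53 is a transcription factor that DNA damage stabilises, and among its targets are genes that start apoptosis by different routes. Pmaip1 (NOXA) and Bbc3 (PUMA) are BH3-only proteins that bind the survival proteins of the BCL2 family at the mitochondrion. Fas and Tnfrsf10b are death receptors of the cell surface, which bind Fas ligand and TRAIL. Pidd1 is the scaffold of the complex that activates caspase-2, Perp is a membrane protein that also takes part in desmosomes, and Aen is a nuclease of the nucleus. Bax, another p53 target of this kind, had no probe of its own.

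A promoter window from 250 bases before to 50 bases after the start site was held for 4 of the 7 genes, in 7 windows, taken from RefSeq (GRCm38.p6). The p53 half-site, a sequence of 10 letters, was searched without mismatch on both strands. Of the 4 genes only Aen held it, in both of its overlapping windows, 10 bases after the first start site and 121 bases before the other. Of all 32851 windows 8.36% held it. A pair of adjoining half-sites with at most 2 mismatches was in none of the 7 windows and in 0.326% of all windows, and no match says only that these letters are not in these windows. Pairs with more mismatches were not searched for, so the Bbc3 window is not shown to lack a p53 site. The first windows of Aen (chr7:78895677-78895976, plus strand) and of Bbc3 (chr7:16309333-16309632, plus strand) are shown as one with and one without the match, with the half-site in capitals.
Aen: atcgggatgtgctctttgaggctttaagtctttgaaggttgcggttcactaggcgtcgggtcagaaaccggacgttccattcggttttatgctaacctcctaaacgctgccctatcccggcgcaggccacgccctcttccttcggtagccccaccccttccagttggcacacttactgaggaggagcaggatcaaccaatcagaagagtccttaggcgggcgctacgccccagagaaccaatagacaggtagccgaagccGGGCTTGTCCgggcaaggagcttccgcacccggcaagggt
Bbc3: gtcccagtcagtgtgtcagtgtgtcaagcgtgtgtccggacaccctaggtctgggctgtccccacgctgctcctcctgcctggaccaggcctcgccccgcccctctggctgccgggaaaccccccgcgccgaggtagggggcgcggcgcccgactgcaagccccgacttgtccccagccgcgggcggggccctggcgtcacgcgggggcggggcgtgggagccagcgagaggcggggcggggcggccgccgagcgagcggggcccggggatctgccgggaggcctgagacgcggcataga

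Values are deposited intensities on a linear scale, with array medians of 1.02 to 1.07, and changes are differences of log2 intensity. A change sets an irradiated group against its untreated group (same tumour, same arm), averaged over the 4 tumours unless 1 tumour is named, and is given with its standard error (SE). Tests were made with limma, with p-values adjusted by the Benjamini-Hochberg method over all genes tested, two-sided, and a gene was called under 0.05. Whether the 2 arrays of a group stand for different mice is not said in the labels, so each p-value measures only how far such arrays scatter, which may be technical. The arrays of a group correlated at 0.990 to 0.998. The 8 arrays of SCCVII and #8520 taken at day 1 and day 3 after 50 Gy stood apart, since the intensity at the lowest 1% of probes was 0.297 to 0.378 on them, against 0.0128 to 0.134 on the other 80. Results that rest on these 8 arrays are given with and without SCCVII and #8520. In pieces of whole tumour, fewer cells of a type and less RNA per cell cannot be told apart.

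Before irradiation, NR-S1 held far more Pmaip1 and Perp RNA than the other tumours. Pmaip1 had intensities of 14.8 to 22.2 (median 18.2) on the 4 untreated NR-S1 arrays, against 1.23 to 1.88 (median 1.45) in SCCVII, 1.62 to 2.24 (median 1.73) in NFSa and 1.58 to 1.81 (median 1.74) in #8520. No NR-S1 array overlapped with any other, and the level was 12.2 times that of SCCVII, 9.96 times that of NFSa and 10.5 times that of #8520 (log2 differences 3.61, 3.32 and 3.40, SE 0.07 each, adjusted p at most 9.26e-43). Perp was at 63.2 to 70.6 (median 66.4) in NR-S1, against 0.165 to 0.316 (median 0.242) in SCCVII, 0.136 to 0.195 (median 0.149) in NFSa and 0.172 to 0.230 (median 0.184) in #8520. In NR-S1, Perp was brighter than 95.4% of genes or more, and in the other tumours it lay between the percentiles 17.1 and 23.6, so that the log2 differences of 8.15 to 8.74 depend on how background was subtracted from dim probes, as do its changes in these 3 tumours, where it would not pass the filter by its level there. Genes of desmosomes and epithelial junctions, Epcam among them, had a summed intensity of 489 to 512 over 16 genes in untreated NR-S1. The sums were 17.5 to 21.4 in SCCVII, 17.3 to 21.7 in NFSa and 14.2 to 15.7 in #8520. The keratin Krt5 had a median of 370 in NR-S1, against 0.327 in SCCVII, 0.311 in NFSa and 0.264 in #8520. Of the carcinomas only NR-S1 thus carried this marker of squamous epithelium. Epcam, already counted in that sum, had a median of 154 in NR-S1, against 0.551 to 0.758 in the rest. Pdgfra, a receptor of mesenchymal cells, had a median of 11 in NR-S1, against 92.8 in SCCVII, 91.6 in NFSa and 117 in #8520. Col1a1 did not follow that order, with a median of 9.14 in NR-S1, against 8.08 in SCCVII, 30.9 in NFSa and 6.70 in #8520. The summed intensity of 11 fibroblast genes, both of these among them, differed less. It was 374 to 397 in NR-S1, 446 to 577 in SCCVII, 501 to 858 in NFSa and 385 to 761 in #8520.

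The other members differed less between the untreated tumours, although all 7 differed by an F test over the 4 tumours, as did 91.3% of all genes. For Perp that outcome was set by the filter, which it passed only through its high level in NR-S1. Fas had medians of 4.67 in NR-S1 and 4.67 in NFSa, which did not differ (adjusted p = 0.582), against 2.02 in SCCVII and 2.38 in #8520, which did not differ either (adjusted p = 0.168). Tnfrsf10b ran from a median of 5.81 in NR-S1 through 4.40 in SCCVII to 3.15 in NFSa and 3.04 in #8520, with no call between NFSa and #8520. Pidd1 was lowest in NR-S1, with a median of 1.65, against 2.46 in SCCVII, 2.38 in NFSa and 2.72 in #8520. Aen was highest in #8520 (median 3.50), and NR-S1 (2.62), SCCVII (2.87) and NFSa (2.74) did not differ from each other. Bbc3 spanned the narrowest range of medians, 1.69 in NFSa to 2.18 in NR-S1, and SCCVII (1.95) and #8520 (2.15) did not differ.

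The untreated tumours of the carbon-ion arm and those of the gamma arm were not alike. Pmaip1 was higher in the carbon-ion arm by 0.55 in NR-S1 and 0.52 in SCCVII and lower by 0.31 in NFSa, and Fas was higher by 0.52 in NR-S1 and 0.59 in SCCVII and lower by 0.59 in NFSa (log2; SE 0.10 for Pmaip1 and 0.19 for Fas; adjusted p at most 0.0197). Between these untreated arms 49.3% of genes differed in NR-S1, 46.4% in SCCVII, 49.2% in NFSa and 35.6% in #8520. In untreated NFSa 13 T and NK cell genes summed to 12.8 on both arrays of the carbon-ion arm, against 95.1 and 99.3 in the gamma arm. The other tumours showed no such gap. Their sums in the carbon-ion and gamma arms were 10.8 to 11.3 and 8.26 to 8.29 in NR-S1, and 36.0 to 36.3 and 46.6 to 47.1 in SCCVII. In #8520 they were 32.7 to 34.0 and 32.7 to 35.4. The part of these genes in the NFSa values was not tested. Every difference between beams subtracts these arms, and the same difference without that subtraction is given where it changes the call.

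**Figure D1:**
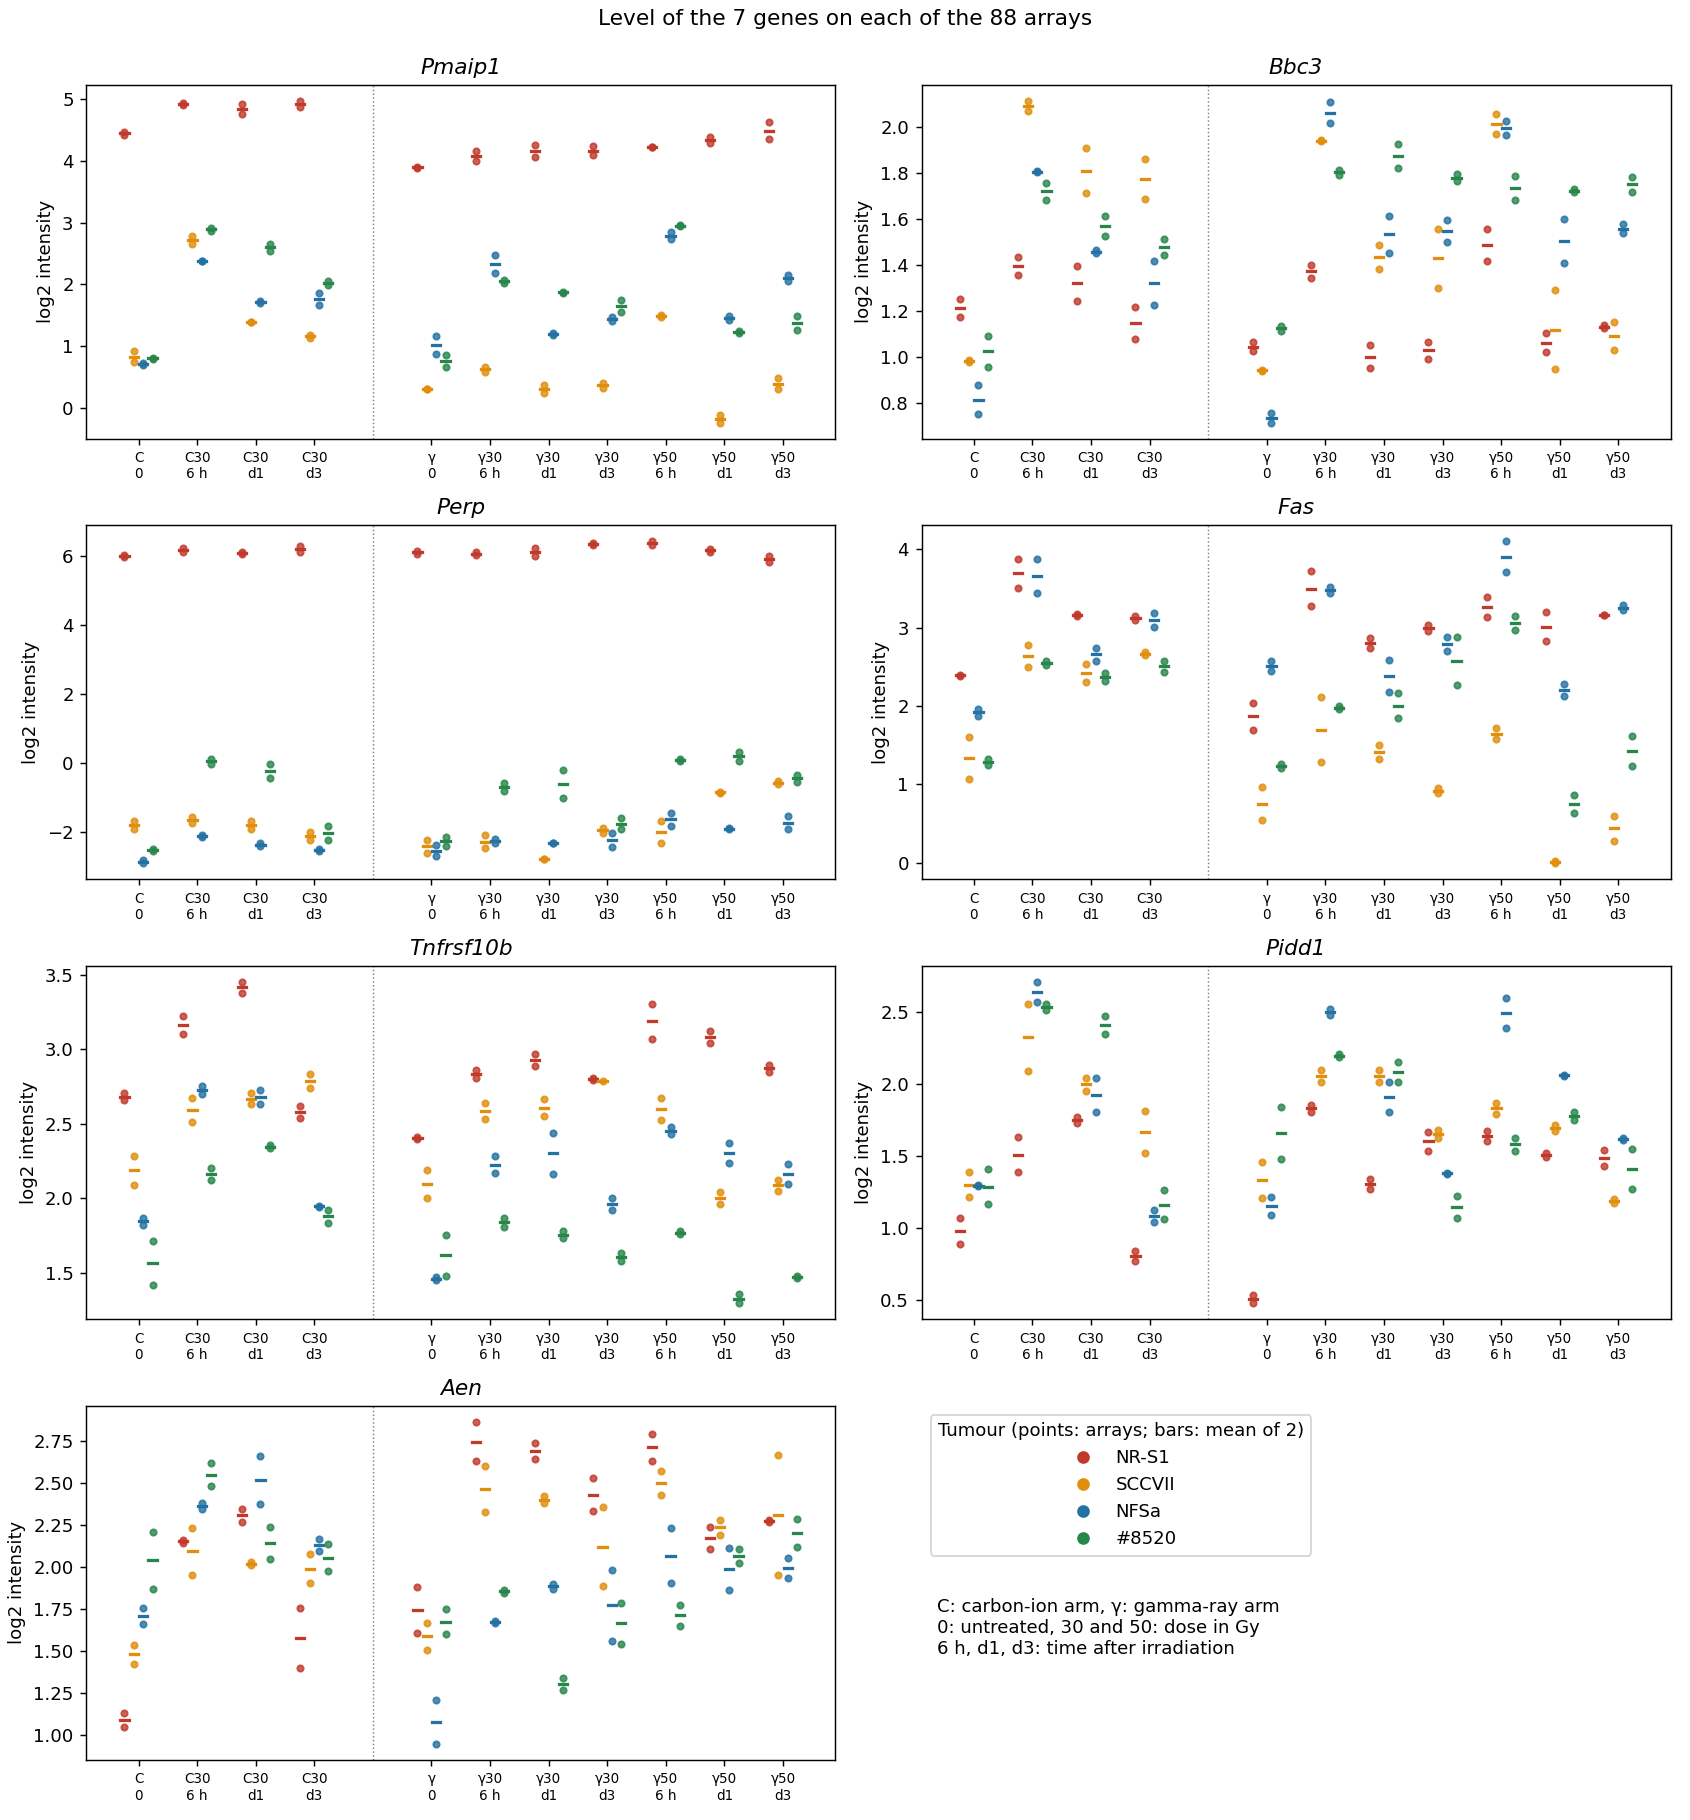
Log2 intensity of the 7 genes on all 88 arrays, by tumour (colour), arm (C, carbon ions; γ, gamma rays) and time, with each array a point and a bar at the mean of the 2 arrays of a group. Pmaip1 and Perp sit far higher in NR-S1 than elsewhere in every condition, and the points of Fas rise above their untreated groups at 6 h in all 4 tumours.

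All 7 genes were higher 6 h after 30 Gy of carbon ions, when 21% of all genes were higher. Pmaip1 rose most, by 1.54 (SE 0.05), or 2.90-fold, and Fas followed with 1.40 (SE 0.10), or 2.64-fold. Pidd1 rose by 1.04 (SE 0.06), Perp by 0.91 (SE 0.09), Bbc3 by 0.74 (SE 0.04), Aen by 0.71 (SE 0.08) and Tnfrsf10b by 0.59 (SE 0.04), with an adjusted p of at most 3.62e-11 for each. The median change of the 7 genes was 0.91, and that of all genes tested was -0.01. In single tumours the members called higher were 5 in NR-S1, 6 in SCCVII and 7 each in NFSa and #8520, against 14.5%, 9.89%, 23.8% and 10.2% of all genes.

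Pmaip1 at 6 h had intensities of 7.57 and 7.28 in #8520 after carbon ions, against 1.72 and 1.75 untreated. In SCCVII it had 6.27 and 6.89 after carbon ions, against 1.67 and 1.88 untreated, and in NFSa 5.18 and 5.21, against 1.62 and 1.64. In NR-S1, where the level was already high, it had 30.1 and 30.8, against 22.2 and 21.5. Irradiated and untreated arrays did not overlap in any tumour, but the change was 2.09 in #8520, 1.89 in SCCVII and 1.67 in NFSa, against 0.48 in NR-S1 (SE 0.10 each), and the responses of the 4 tumours differed (moderated F test, adjusted p = 2.45e-14). Even after its rise, Pmaip1 in the other 3 tumours stayed below the untreated level of NR-S1.

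Bbc3 showed the same order of NR-S1 below the rest. It had 4.20 and 4.33 in SCCVII at 6 h after carbon ions, against 1.98 and 1.97 untreated, 3.49 and 3.50 in NFSa, against 1.69 and 1.84, and 3.21 and 3.38 in #8520, against 1.94 and 2.13. In NR-S1 it had 2.56 and 2.70, against 2.39 and 2.26, and the change of 0.18 was not called (SE 0.09, adjusted p = 0.121). Over the 9 combinations of beam, dose and time, Bbc3 was called higher 9 times each in NFSa and #8520 and 7 times in SCCVII, against 2 in NR-S1, both at 6 h after gamma rays.

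Fas was the member whose response to carbon ions did not differ detectably between tumours, with adjusted p-values of the F test of 0.328 at 6 h, 0.463 at day 1 and 0.176 at day 3. At 6 h it had 14.7 and 11.4 in NR-S1 after carbon ions, against 5.25 and 5.23 untreated, and 6.83 and 5.64 in SCCVII, against 2.10 and 3.04. In NFSa it had 10.9 and 14.7, against 3.89 and 3.66, and in #8520 5.72 and 5.97, against 2.37 and 2.51. Each irradiated array lay above both untreated arrays, and the changes were 1.30, 1.30, 1.74 and 1.26 in that order of tumours (SE 0.19 each). After gamma rays the Fas responses did differ between tumours, at 30 Gy with adjusted p-values of 0.0337 at 6 h, 0.00392 at day 1 and 0.000155 at day 3. Tnfrsf10b, the second death receptor, rose by 0.88 in NFSa, 0.60 in #8520, 0.48 in NR-S1 and 0.40 in SCCVII at 6 h after carbon ions (SE 0.09 each). In NFSa it had 6.75 and 6.50 after carbon ions, against 3.64 and 3.54 untreated, which did not overlap.

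Pidd1 rose in every tumour at 6 h after carbon ions, by 1.34 in NFSa, 1.25 in #8520, 1.02 in SCCVII and 0.53 in NR-S1 (SE 0.11 each). Aen ran the other way and rose most in NR-S1, by 1.06, against 0.65 in NFSa, 0.62 in SCCVII and 0.51 in #8520 (SE 0.15 each), although at 6 h its F test over tumours was not called (adjusted p = 0.123). Its intensities in NR-S1 were 4.47 and 4.42 after carbon ions, against 2.19 and 2.06 untreated. Over the 9 combinations Aen was called higher 9 times each in NR-S1, SCCVII and NFSa and 3 times in #8520, where it was also called lower once, by 0.37 at day 1 after 30 Gy of gamma rays. Pidd1 and Aen each have a further, dimmer probe that was not used. On it the changes at 6 h, day 1 and day 3 after carbon ions were 0.15, 0.16 and 0.32 for Aen, and -0.07, -0.03 and -0.05 for Pidd1. After 30 Gy of gamma rays the changes were 0.19, 0.09 and 0.26 for Aen and 0.03, 0.17 and -0.06 for Pidd1. After 50 Gy the changes were 0.17, -0.20 and 0.08 for Aen and 0.11, 0.03 and -0.10 for Pidd1. The probes of each gene thus disagree at 6 h and day 1 after either beam, and the values and counts of calls given hold for the brighter probe.

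Perp had the most uneven response. Its values in SCCVII, NFSa and #8520 are dim, and its changes and p-values there depend on the unknown background step. In #8520 it had 0.994 and 1.10 at 6 h after carbon ions, against 0.172 and 0.179 untreated, a change of 2.57 (SE 0.18, adjusted p = 2.03e-17). In NFSa it had 0.239 and 0.230, against 0.136 and 0.143, a change of 0.75 (adjusted p = 0.000623). The arrays overlapped in SCCVII, with 0.301 and 0.338 after carbon ions, against 0.316 and 0.267 untreated, and in NR-S1, where they did not overlap, the values were 69.2 and 74.8, against 65.3 and 63.2. Neither change was called (0.13 in SCCVII, adjusted p = 0.694; 0.16 in NR-S1, adjusted p = 0.553). The mean over tumours is therefore carried by #8520, and Perp was called higher in all 9 combinations there, against 5 in NFSa, 3 in SCCVII and 0 in NR-S1.

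**Figure D2:**
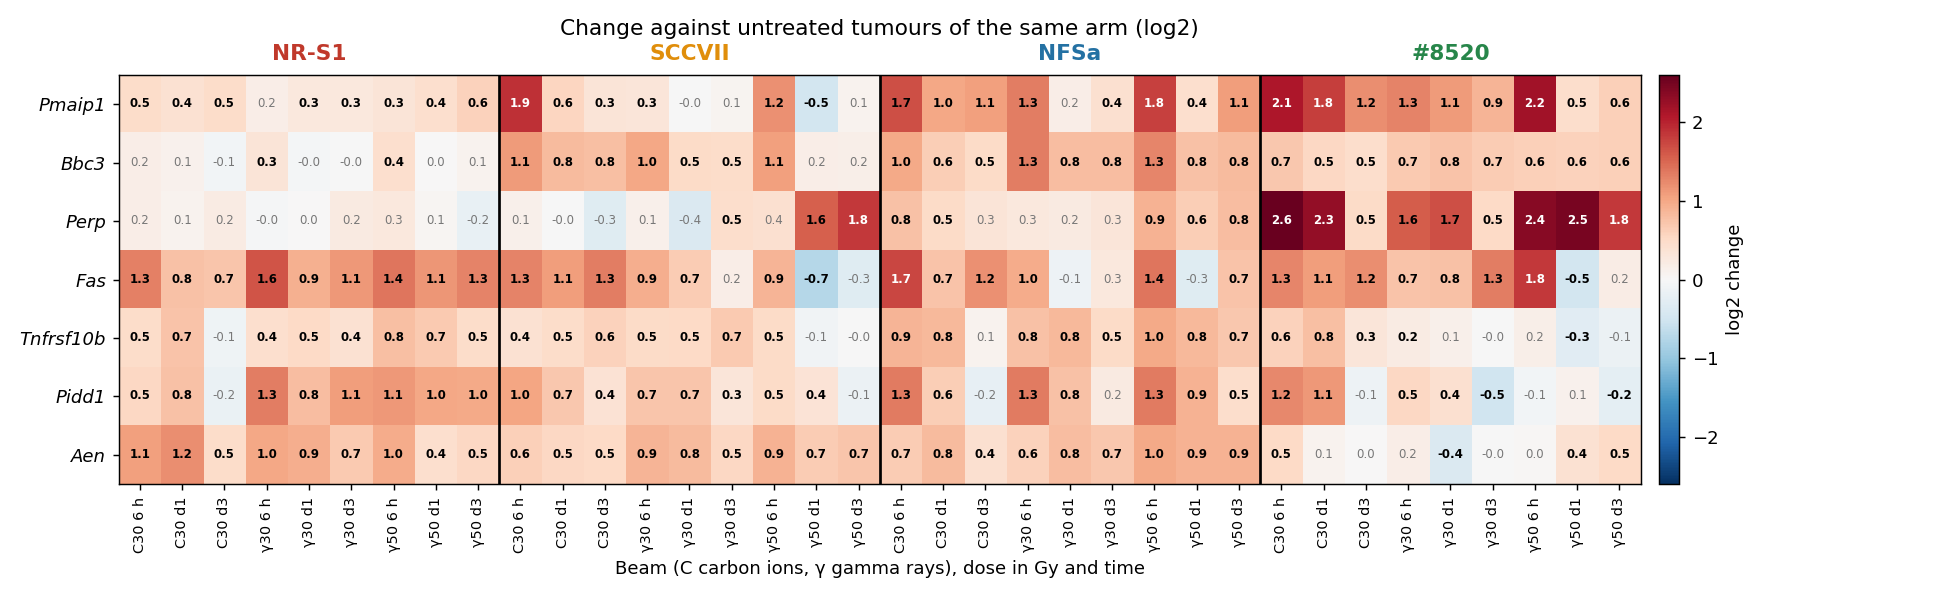
Log2 change of each of the 7 genes against untreated tumours of the same arm, for 9 combinations of beam, dose and time in each of 4 tumours, with values in bold where the adjusted p is under 0.05. Perp stands out in #8520, with 2.57 at 6 h after carbon ions, and Bbc3 in NR-S1 has 2 bold values of 9.

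Taken over all 36 combinations of tumour, beam, dose and time, Pmaip1 and Aen were called higher in 30 each, Fas in 28, Bbc3, Tnfrsf10b and Pidd1 in 27 each, and Perp in 17, where 8.02% to 30.4% of all genes were called higher in a combination and 5.53% to 48.1% lower. Calls of a fall were few, 2 each for Fas and Pidd1, 1 each for Pmaip1, Tnfrsf10b and Aen, and 0 for Bbc3 and Perp. The falls of Fas, Pmaip1 and Tnfrsf10b were all at day 1 after 50 Gy in SCCVII or #8520, on the arrays with brighter dim probes. Those of Pidd1 were at day 3 after both gamma doses in #8520, and the one after 50 Gy is also on such arrays. The responses differed between the 4 tumours for 5 genes at each time after carbon ions, where 45%, 58.3% and 61.9% of all genes differed. For 30 Gy of gamma rays the tumours differed for 7, 6 and 6 genes (36.9%, 52.5% and 56% of all genes) and after 50 Gy for 7, 6 and 6 (59.6%, 76.5% and 77%). The 7 genes did not move as one. Over the 44 group means, with each tumour's own mean subtracted, the 21 pairs of members had Pearson correlations of 0.0228 to 0.816 with a median of 0.476, the highest for Pmaip1 with Fas, where the groups share tumours and arrays.

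In the mean over tumours, the response to carbon ions was smaller at day 3 than at 6 h in all 7 genes. The change at day 3 was lower than at 6 h by 1.07 for Pidd1 (SE 0.06), 0.76 for Pmaip1 (SE 0.05) and 0.73 for Perp (SE 0.09), and by 0.29 to 0.36 for Fas, Bbc3, Aen and Tnfrsf10b (adjusted p at most 0.00783), where 41.1% of all genes were lower. In 1 tumour each, Fas, Tnfrsf10b and Perp were higher at day 3 than at 6 h, by 0.03, 0.20 and 0.05. The decline was not steady for Tnfrsf10b, whose mean change was 0.59 at 6 h and 0.71 at day 1. At day 1 all 7 were still above untreated, with 25.5% of genes higher, and the changes were 0.94 for Pmaip1, 0.92 for Fas, 0.81 for Pidd1, 0.72 for Perp, 0.71 for Tnfrsf10b, 0.67 for Aen and 0.53 for Bbc3. At day 3, when 26.4% of genes were higher, 5 were called. Fas was then the furthest above untreated, by 1.11 (SE 0.10), ahead of Pmaip1 with 0.77, Bbc3 with 0.42, Aen with 0.36 and Tnfrsf10b with 0.23. Pidd1 was back at the untreated level, with a change of -0.03 (95% interval -0.15 to 0.08). Perp at 0.18 was not called (adjusted p = 0.0661), and it was called when the first array of SCCVII at day 3 after carbon ions, of untreated SCCVII or of #8520 at day 3 was left out, under quantile normalization (adjusted p = 0.0476), with only the arrays compared (0.0209) and with the untreated arrays of both arms (0.0373).

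Pidd1 returned furthest in NFSa, where the change at day 3 was lower than that at 6 h by 1.55, and in #8520, where it was lower by 1.37 (SE 0.11 each). Its intensities in NFSa were 2.06 and 2.18 at day 3 after carbon ions, against 2.44 and 2.46 untreated, while at 6 h they had been 6.53 and 5.91. Pmaip1 fell back most in SCCVII, where 2.27 and 2.19 at day 3 stood against 1.67 and 1.88 untreated. In NR-S1 it did not fall back, with 31.4 and 29.5 at day 3, against 22.2 and 21.5 untreated. After 30 Gy of gamma rays 5 genes were lower at day 3 than at 6 h (29.6% of all genes), namely Pidd1 by 0.70, Pmaip1 by 0.37, Bbc3 and Fas by 0.35 each and Aen by 0.19, the last with an adjusted p of 0.0407 that passed 0.05 when any of 10 of the 16 arrays was left out.

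After 30 Gy of gamma rays, too, all 7 genes were higher at each time in the mean over tumours, against 19.3% of genes at 6 h, 21.2% at day 1 and 23.1% at day 3. Single tumours were less even, and Perp ran from -0.04 to 1.57 at 6 h and from -0.37 to 1.67 at day 1. At day 1 the changes of Pmaip1, Bbc3, Fas, Perp and Aen were each below 0 in 1 tumour. At 6 h the changes were 1.07 for Fas (SE 0.10), 0.98 for Pidd1 (SE 0.06), 0.83 for Bbc3 (SE 0.04), 0.78 for Pmaip1 (SE 0.05), 0.66 for Aen (SE 0.08), 0.49 for Perp (SE 0.09) and 0.48 for Tnfrsf10b (SE 0.04). By day 3 Fas was at 0.73 and Bbc3, Aen, Pmaip1, Tnfrsf10b, Perp and Pidd1 between 0.28 and 0.48. The Tnfrsf10b value of 1 of the 2 SCCVII arrays at day 3 was missing, and that group entered the fit with 1 array.

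Carbon ions and gamma rays at 30 Gy differed most in Pmaip1. Its rise at 6 h was larger after carbon ions by 0.76 (SE 0.07, adjusted p = 5.53e-13), in the same direction in 4 of 4 tumours. The difference was 1.57 in SCCVII (95% interval 1.30 to 1.84) and 0.81 in #8520 (adjusted p = 8.28e-06), whereas 0.35 in NFSa (adjusted p = 0.0754) and 0.30 in NR-S1 (adjusted p = 0.141) were not called. In SCCVII Pmaip1 had 6.27 and 6.89 after carbon ions, against 1.49 and 1.58 after gamma rays, with untreated values of 1.67 and 1.88 in the carbon-ion arm and 1.23 and 1.23 in the gamma arm. Its level after carbon ions also lay above the 2.78 and 2.83 of 50 Gy of gamma rays. The difference between beams was 0.55 at day 1 (adjusted p = 3.27e-09) and 0.36 at day 3 (adjusted p = 2.01e-05), and, comparing irradiated groups directly with no untreated arrays subtracted, 0.96, 0.75 and 0.56 at the 3 times.

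At 6 h 2 of the 7 genes were higher after carbon ions than after gamma rays, where 9.28% of all genes were. The second was Perp, by 0.42 (SE 0.13, adjusted p = 0.0150), which in #8520 had 0.994 and 1.10 after carbon ions, against 0.572 and 0.672 after gamma rays. That tumour's difference of 1.00 was called (adjusted p = 0.00266), and those of the other 3 were not. Fas missed the threshold at 6 h, with a difference of 0.33 (95% interval 0.06 to 0.60, adjusted p = 0.0897), and it was called with the irradiated groups compared directly (0.47, adjusted p = 3.83e-05). Bbc3 differed by -0.09 (95% interval -0.21 to 0.04), Pidd1 by 0.05 (-0.11 to 0.22), Aen by 0.05 (-0.17 to 0.26) and Tnfrsf10b by 0.11 (-0.01 to 0.24), and none of these was called. With the irradiated groups compared directly, Tnfrsf10b was higher after carbon ions by 0.29 (adjusted p = 3.26e-07).

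For Pidd1 a mean difference near 0 at 6 h joined tumours with opposite signs. In #8520 its rise was larger after carbon ions by 0.71 (SE 0.16, adjusted p = 0.000914), and in NR-S1 it was smaller by 0.79, with a difference of -0.79 (SE 0.16, adjusted p = 0.000205). The NR-S1 arrays had 2.61 and 3.09 after carbon ions, against 3.61 and 3.49 after gamma rays, with untreated values of 1.85 and 2.10 in the carbon-ion arm and 1.39 and 1.45 in the gamma arm. The untreated arms differed by 0.47 in NR-S1 and by -0.37 in #8520, which is part of each of these differences.

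At day 1 4 genes were higher after carbon ions, where 17.1% of all genes were, namely Pmaip1, Fas by 0.36 (adjusted p = 0.0432), Perp by 0.33 (adjusted p = 0.0433) and Tnfrsf10b by 0.20 (adjusted p = 0.0140). The calls of Fas and Perp were lost when any of 17 and any of 20 of the 32 arrays was left out, with adjusted p-values of up to 0.108 and 0.149. Tnfrsf10b rested on #8520, where the difference was 0.64 (adjusted p = 8.13e-05), while in the other tumours it was -0.03 to 0.21 and not called. Without subtraction of the untreated arms, Pidd1 and Aen were called higher after carbon ions at day 1 too, each by 0.18 (adjusted p = 0.00466 and 0.0395). At day 3 2 genes were higher (15.8% of all genes), Pmaip1 and Fas, which differed by 0.39 (adjusted p = 0.0206), and 2 were lower (20.2% of all genes), Pidd1 by 0.32 (adjusted p = 0.00154) and Tnfrsf10b by 0.17 (adjusted p = 0.0420). The Fas call was lost without any of 3 of the 32 arrays (#8520 after gamma rays, or the first untreated SCCVII array of either arm) and the Tnfrsf10b call without any of 17, with adjusted p-values of up to 0.0644 and 0.114. Without subtraction of the untreated arms, the Tnfrsf10b difference was 0.0090 and its call was lost, and Perp was lower after carbon ions by 0.21 (adjusted p = 0.0302).

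The Fas difference at day 3 was called in 2 tumours. In SCCVII Fas had 6.45 and 6.25 after carbon ions, against 1.85 and 1.94 after gamma rays, with untreated values of 2.10 and 3.04 in the carbon-ion arm and 1.94 and 1.46 in the gamma arm, a difference of 1.16 (SE 0.27, adjusted p = 0.00125). In NFSa the difference was 0.91 (adjusted p = 0.0102), and in NR-S1 (-0.40) and #8520 (-0.12) it was not called. The untreated NFSa arms differed by -0.59 in Fas, which is part of the 0.91. With the NFSa mean subtracted, log2 Fas at day 3 was 0.21 after carbon ions and -0.11 after gamma rays. With the SCCVII mean subtracted, it was 1.22 and -0.53 in SCCVII. These differences without the untreated arms were not tested in single tumours. The Pidd1 difference at day 3 came mainly from NR-S1, where it was -1.27 (SE 0.16, adjusted p = 4.31e-09). Pidd1 there had 1.71 and 1.79 after carbon ions, against 2.89 and 3.17 after gamma rays. The untreated NR-S1 arms differed by 0.47 in Pidd1, higher in the carbon-ion arm, which is part of the -1.27.

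**Figure D3:**
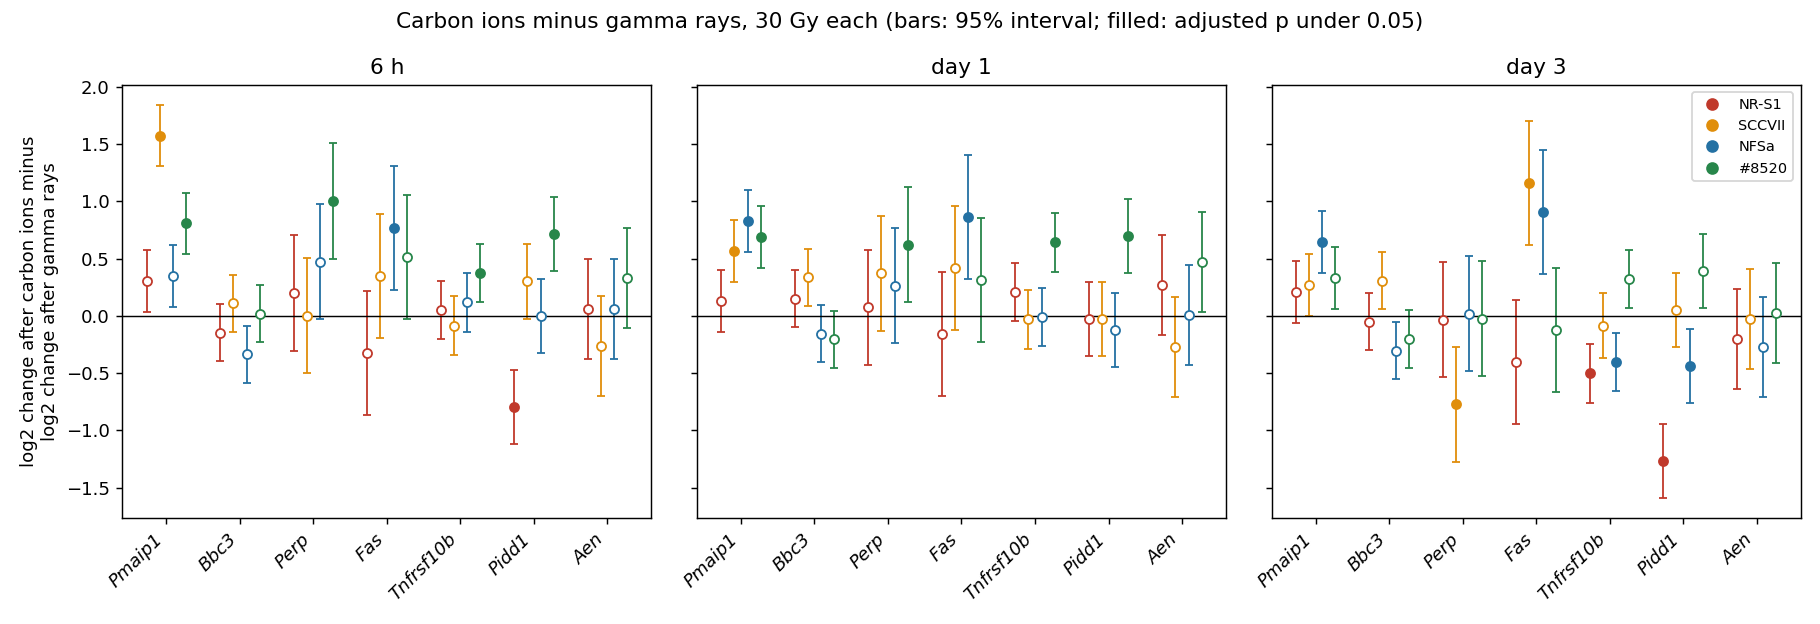
Difference between the log2 changes after 30 Gy of carbon ions and 30 Gy of gamma rays for each gene and tumour at 6 h, day 1 and day 3, with 95% intervals and filled points where the adjusted p is under 0.05. Pmaip1 in SCCVII at 6 h (1.57) lies furthest to the carbon-ion side, and Pidd1 in NR-S1 at day 3 (-1.27) furthest to the gamma side.

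Raising the gamma dose to 50 Gy gave larger rises at 6 h in 4 genes, against 10.9% of all genes. Pmaip1 rose by 1.37 after 50 Gy and 0.78 after 30 Gy, a difference of 0.60 (SE 0.05, adjusted p = 5.11e-15). Perp differed by 0.50 (adjusted p = 9.45e-06), Fas by 0.31 (adjusted p = 0.0116) and Tnfrsf10b by 0.13 (adjusted p = 0.0219). Pidd1 was lower after 50 Gy by 0.26 (adjusted p = 0.000307; 16.2% of all genes were lower), mostly in #8520, where it had 3.09 and 2.89 after 50 Gy, against 4.54 and 4.61 after 30 Gy and 2.78 and 3.58 untreated. The Fas difference also came from #8520, with 7.85 and 8.86 after 50 Gy, against 4.0 and 3.88 after 30 Gy and 2.31 and 2.39 untreated. Without SCCVII and #8520, Fas differed by 0.10 and Pidd1 by -0.10, neither called, and Pmaip1 (0.30), Perp (0.47) and Tnfrsf10b (0.29) were still called. The Fas call was also lost without the first NR-S1 array or the second SCCVII array of 30 Gy at 6 h, and the Tnfrsf10b call without any of 4 arrays, with adjusted p-values of up to 0.108 and 0.104. Bbc3 and Aen did not differ detectably between doses at 6 h, with differences of 0.01 (95% interval -0.07 to 0.10) and 0.06 (-0.09 to 0.22).

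At the later times the comparison of doses rests on the arrays with brighter dim probes. Against untreated tumours, 7 genes were higher at 6 h after 50 Gy (22.8% of all genes), 6 at day 1 (23.1%) and 7 at day 3 (28.7%), and Fas at day 1, with a mean change of -0.10, was the exception. Its changes were -0.75 in SCCVII and -0.48 in #8520, both called, and -0.31 in NFSa, which was not (adjusted p = 0.251), while in NR-S1 it rose by 1.15, and over NR-S1 and NFSa the change was 0.42 (adjusted p = 0.0141). Against 30 Gy, 1 gene was higher at day 1 (19.6% of all genes) and 4 were lower (43.1%), and at day 3 the counts were 3 higher (23.9%) and 2 lower (35.5%). Of the lower genes Bbc3 at day 1 and Tnfrsf10b at day 3 turned to the higher side under quantile normalization, with 0.086 and 0.034. Over NR-S1 and NFSa only Pmaip1 was called at either time, higher by 0.22 at day 1 (adjusted p = 0.0496) and by 0.49 at day 3 (adjusted p = 2.00e-07).

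Perp shows how far these arrays reach. In SCCVII it had 0.557 and 0.559 at day 1 and 0.702 and 0.656 at day 3 after 50 Gy, against 0.165 and 0.217 untreated, changes of 1.56 and 1.84. The level of the dimmest 1% of probes on these arrays, at least 0.297, lies above its untreated level. In #8520 Perp was at 1.06 and 1.09 at 6 h after 50 Gy, on arrays that did not stand apart, against 0.190 and 0.230 untreated, a change of 2.36 (SE 0.18). The dose difference of Perp was 0.80 at day 1 and 0.69 at day 3 over all tumours, and 0.23 (adjusted p = 0.348) and 0.03 (adjusted p = 0.930) over NR-S1 and NFSa.

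Fas has a ligand that the arrays also measured, Fasl, made mainly by T and NK cells. At 6 h after carbon ions Fas was up in all 4 tumours and Fasl, with changes of -0.13 in NR-S1, 0.01 in SCCVII, 0.28 in NFSa and 0.13 in #8520, was not called in any. At day 3 Fasl was higher by 2.57 in NR-S1, 0.49 in SCCVII, 3.16 in NFSa and 1.19 in #8520 (SE 0.14 each, adjusted p at most 0.00580), with a mean of 1.85. At that time 11 of 11 tested markers of T and NK cells were higher, with a median change of 1.89, and 9 of 10 of macrophages. The summed intensity of 13 T and NK cell genes was then 74.9 to 79.3 in NR-S1, against 10.8 to 11.3 untreated, and 75.6 to 77.6 in SCCVII, against 36.0 to 36.3. It was 121 to 131 in NFSa, against 12.8, and 86.2 to 89.0 in #8520, against 32.7 to 34.0. These untreated sums are those of the carbon-ion arm. Untreated NFSa of the gamma arm had 95.1 to 99.3, so the size of the NFSa rise depends on the arm used. The NFSa changes of Fasl, too, were each taken against the untreated arrays of their own arm. At 6 h, when Fas was highest, the sums after carbon ions were 9.68 to 10.2 in NR-S1, 35.6 to 37.1 in SCCVII, 11.2 to 11.8 in NFSa and 37.9 to 38.0 in #8520. None of the 13 genes was at 0 on all untreated arrays, and their part in the Fas and Fasl values was not tested. After 30 Gy of gamma rays Fasl at 6 h was lower by 1.14 in SCCVII, 0.57 in NFSa and 1.07 in #8520 and higher by 0.71 in NR-S1 (adjusted p at most 0.00364), with 10 of 11 T and NK cell markers lower in the mean over tumours. At day 3 it was higher by 0.79 in NR-S1, 0.52 in SCCVII and 1.54 in #8520, and -0.22 in NFSa was not called. Tnfsf10, the gene of TRAIL, which binds Tnfrsf10b, was not called at 6 h after carbon ions (-0.11, adjusted p = 0.100) and was higher by 0.51 at day 3.

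**Figure D4:**
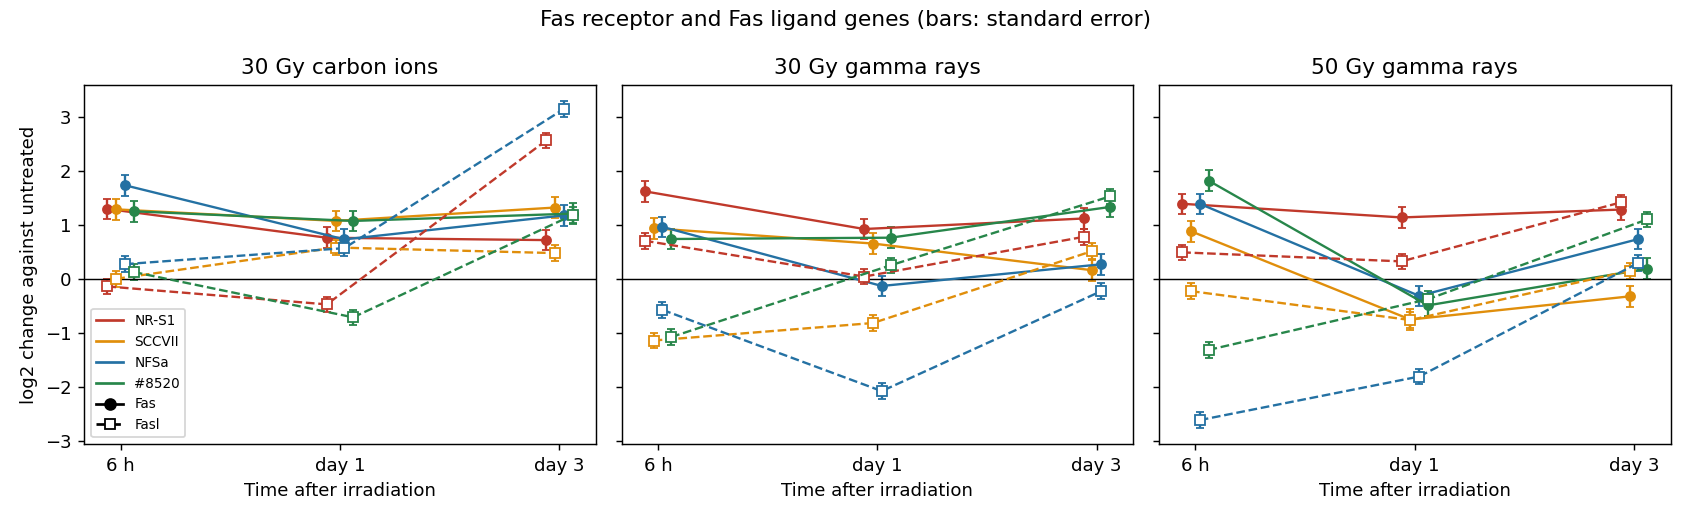
Log2 change of Fas (solid) and its ligand Fasl (dashed) against untreated tumours of the same arm at 6 h, day 1 and day 3. Each tumour is shown in 3 panels, 30 Gy of carbon ions, 30 Gy of gamma rays and 50 Gy of gamma rays. Bars are 1 SE. Fas is up at 6 h in every panel and tumour, and at day 3 of the carbon-ion panel Fasl reaches 3.16 in NFSa and 2.57 in NR-S1.

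Other cell markers moved with the 6 h responses as well. At 6 h after carbon ions 9 of 10 tested neutrophil markers were higher, with a median change of 1.36, and 8 of 10 skeletal muscle markers, with a median of 0.36. The summed intensity of 11 neutrophil genes was 279 to 285 in #8520 at 6 h after carbon ions, against 23.8 to 24.0 untreated, and 339 to 359 in NFSa, against 21.4 to 22. It was 287 to 331 in NR-S1, against 122 to 131, and 54.7 to 61.3 in SCCVII, against 16.7. These untreated sums are those of the carbon-ion arm, and untreated NFSa of the gamma arm had 92.2 to 101. None of these genes was at 0 on all untreated arrays, and their part in the members' changes was not tested.

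The members stood among p53 targets that moved the same way. Of 30 other p53 targets tested, out of 34 listed, 24 were higher and 3 lower at 6 h after carbon ions, with a median change of 0.60, where 21% of all genes were higher and 19.5% lower. At day 1 the counts were 20 and 0 (25.5% and 16.6% of all genes), and at day 3 they were 15 and 4 (26.4% and 41.8%). Mdm2, which degrades p53, rose by 1.50, Ccng1, a cyclin G gene, by 1.52 and Cdkn1a, an inhibitor of the cell cycle, by 1.27 at 6 h. After 30 Gy of gamma rays 22 were higher and 3 lower at 6 h (19.3% and 18.4% of all genes), and after 50 Gy 21 and 3 (22.8% and 26.9%). Between beams at 6 h 8 of the 30 were higher and 1 lower after carbon ions (9.28% and 6.62% of all genes).

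Other genes of the death machinery were called higher and lower at 6 h after carbon ions, when 21% of all genes were higher and 19.5% lower. In the BCL2 family 2 of 9 genes were higher and 4 lower, with a median of -0.08, among them the survival genes Mcl1, higher by 0.26, and Bcl2, lower by 0.42 (SE 0.05 and 0.06), and the BH3-only gene Bcl2l11, higher by 0.25. Bak1, which permeabilises mitochondria, was lower by 0.18. Of the genes of death receptor signalling 3 of 10 were higher and 1 lower at 6 h, and 6 and 3 at day 3 (26.4% and 41.8% of all genes). Of the apoptosome and caspases 3 of 15 were higher and 3 lower, and Apaf1, the scaffold of the apoptosome and a p53 target itself, was higher by 0.48 (SE 0.05). Of 13 genes for p53 and its regulators 2 were higher and 5 lower, and of 11 genes of desmosomes and epithelial junctions 2 were higher and 2 lower. Bcl2l1, a survival gene of the BCL2 family, fell below the filter on dim genes.

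The genes whose pattern was most like a member's were sought by Pearson correlation over the 44 group means with each tumour's mean subtracted. For Pmaip1 these were Fas (0.816), Cdc42bpg and S100a8 (0.785), and for Fas they were Mapkapk3 (0.834), Icam1 (0.831) and Pmaip1. For Bbc3 they were Ccng1 (0.815), Arap2 and Def6 (0.810), and for Tnfrsf10b Slc19a2 (0.854), Mdm2 (0.833) and Zfp365 (0.827). For Pidd1 they were Thyn1 (0.841), Rgs12 (0.827) and Pigf (0.823), for Aen Kdsr (0.839), Btg2 (0.783) and Dhh (0.769), and for Perp Tex15 (0.788), U90926 and Map7. The groups share 4 tumours, and the correlations are descriptions only.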

How the data were processed

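Values are the deposited intensity of each probe on a linear scale, 1 colour (Cy5) per array by the CodeLink protocol, per the labels' protocols. For the scanner software, the background step and the scaling, nothing is stated in these sources. The values show that background had been subtracted (the lowest value was -0.271) and arrays scaled to a median near 1. Missing values made up 0.751% of the table, and a further 0.150% lay at or below 0.

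Groups of the 88 arrays follow the titles. The platform annotation gave 1 symbol to 21615 of 36227 probes, more than 1 to 681, which were not named, and none to 13931. Symbols were updated by Entrez number (21487 matched) to a RefSeq table of GRCm38.p6. No log2 was taken of values not above 0, and the log2 values were not normalized again. Genes in the lowest 25% of mean log2, or with values on under 80% of arrays, were left out, and 13465 remained. limma 3.58.1 (R 4.3.3) fitted 1 mean per group with 44 residual degrees of freedom, gave contrasts and a moderated F test over the 4 tumours, with Benjamini-Hochberg adjustment over all genes. The fit was tested on simulated data. The number of arrays limits the precision.

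The members, the 15 gene lists and the tests were chosen with earlier results of these data known. Named were all 7 members, a fixed set of regulators and partners, and the 3 genes most alike to each member. Alternatives changed the scaling, an offset of 0.0314 before log2, the dim filter, the probe rule, the samples, the variance model, the untreated arrays and the unit of replication. Python 3.11.15 and matplotlib 3.10.9 drew the figures.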

Additional observations from a re-analysis of the deposited data

Results flagged for a closer look

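The response to 30 Gy of carbon ions differed between the 4 tumours for most of the genes, by limma's moderated F test with adjustment over all genes. At 6 h the adjusted p was 2.45e-14 for Pmaip1, 6.34e-12 for Perp, 5.89e-08 for Bbc3, 0.000170 for Pidd1 and 0.00817 for Tnfrsf10b, which is 5 of 7 genes where 45% of all genes differed. The changes in SCCVII, NFSa and #8520 ran from 1.67 to 2.09 for Pmaip1 and from 0.70 to 1.11 for Bbc3, against 0.48 and 0.18 in NR-S1. For Perp #8520 stood apart with 2.57, against 0.13 to 0.75 in the others.

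At day 1 the adjusted p was 1.76e-12 for Pmaip1, 2.76e-11 for Perp, 2.25e-05 for Bbc3, 0.000209 for Aen and 0.0306 for Pidd1, again 5 of 7 where 58.3% of all genes differed. Aen was up by 1.22 in NR-S1 at that time, 0.81 in NFSa and 0.54 in SCCVII, and its 0.10 in #8520 was not called. At day 3 it was 4.72e-08 for Pmaip1, 6.67e-07 for Bbc3, 3.57e-05 for Tnfrsf10b, 0.00457 for Pidd1 and 0.0252 for Perp, 5 of 7 where 61.9% of all genes differed. Tnfrsf10b was then up by 0.60 in SCCVII and 0.31 in #8520, and -0.10 in NR-S1 and 0.10 in NFSa were not called.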

How the results depend on the processing

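With each tumour as 1 replicate, 5 of 7 members were called at 6 h after carbon ions, 1 at day 1 and 2 at day 3, 1 for day 3 against 6 h after carbon ions, and 0 in every comparison of gamma rays, beams and doses. At an unadjusted p under 0.05 this setting gave 7, 6 and 4 members for the 3 times after carbon ions, 6, 4 and 6 after 30 Gy of gamma rays, 7, 3 and 3 after 50 Gy, 1 at each time between beams, 2, 1 and 0 between doses, and 4 and 2 between times after carbon ions and 30 Gy of gamma rays. The other alternatives of the change against untreated tumours kept the counts within 1.5 times. Between beams at 6 h the count of 2 was 1 with the dimmest 50% of genes left out, which removes Perp, and 4 with irradiated groups compared directly. Between beams at day 1 the count of 4 was 2 under quantile normalization, with arrays centred on their median, with no filter on dim genes and with only the arrays compared. Leaving out 1 array gave 2 to 4 at day 1 between beams, with 2 without any of 7 arrays: both untreated NR-S1 arrays of the carbon-ion arm, an NR-S1 array after carbon ions, an untreated #8520 array of each arm, and an NFSa and an SCCVII array after gamma rays. It gave 2 to 4 at day 3 between beams (2 without an untreated SCCVII array of the gamma arm), 3 to 5 at day 3 between doses (3 without an SCCVII or #8520 array of 30 Gy or an SCCVII array of 50 Gy) and 3 to 5 for differences between tumours at day 3 after carbon ions (3 without an untreated SCCVII array). Over NR-S1 and NFSa only, the counts between doses were 3, 1 and 1, from fewer arrays.

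Single values turned round in 13 cases, counted only where the main value or its alternative was called. Over NR-S1 and NFSa only, Fas at day 1 after 50 Gy was 0.42, and the dose differences were 0.22 for Pmaip1, 0.015 for Bbc3, 0.016 for Fas and 0.079 for Tnfrsf10b at day 1, and 0.32 for Fas and 0.13 for Tnfrsf10b at day 3. Under quantile normalization the dose differences were 0.086 for Bbc3 and 0.12 for Pidd1 at day 1, and 0.034 for Tnfrsf10b and 0.14 for Pidd1 at day 3. The Aen dose difference at day 1 was -0.13 with the mean of its probes, and the Tnfrsf10b difference between beams at day 3 was 0.0090 with irradiated groups compared directly. The cause was not tested. Of 830 alternative values of changes against untreated 772 kept the call or its absence, 53 lost the call, 4 gained it and 1 turned. Of 703 for differences, 609 kept the call or its absence, 74 lost the call, 8 gained it and 12 turned. A value called in neither setting counts as kept even where its sign changed. The Bbc3 dose difference at day 3, for instance, was -0.063 in the main setting and 0.057 over NR-S1 and NFSa.

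Arrays with the same replicate number had deviations that correlated at -0.193 to 0.390 over 64 pairs of groups, so the numbers were not taken to pair the samples. With the replicate block, 3 members differed between beams at day 1, 4 between day 3 and 6 h after 30 Gy of gamma rays and 6 between tumours at day 1 after carbon ions, and the other counts stayed as they were. Perp lies near the dim end in 3 tumours, so its changes there depend most on the unknown background step.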
